A study of Mus musculus with 6 samples.

Results

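The CCT chaperonin, also called TRiC, is built from 8 different subunits, encoded in the mouse by Tcp1, Cct2, Cct3, Cct4, Cct5, Cct6a, Cct7 and Cct8. These 8 genes were found by their Ensembl identifiers among the 43629 genes of a count table from B16F10 tumours, and all 8 were present. They are the whole complex, but it was selected on earlier results from these same read counts, so its levels and ratios are given as a description and without a test. B16F10 is a pigmented melanoma line from C57BL/6 mice, grown here under the skin of female C57BL/6J mice that were 8 weeks old at injection. All 6 groups carried these tumours, which were harvested once those of the control group measured 2000 mm3. The control group received DMSO and control IgG. A further group received DMSO and anti-PD-1, an antibody against an inhibitory receptor of T cells. Another received AZD5363, an AKT inhibitor, MK1775, a WEE1 inhibitor, and control IgG. The triple combination was AZD5363, MK1775 and anti-PD-1. The remaining groups received the aldehyde dehydrogenase inhibitor KS100, either with control IgG or with anti-PD-1. Tumours of a group were pooled before RNA was extracted, so each treatment is 1 library and differences between mice are not measured.

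CCT folds proteins inside a chamber formed by a pair of stacked rings, and each ring holds every subunit once in a fixed order. Cct2, Cct4, Cct5 and Cct7 lie side by side and form the side of the ring that binds ATP strongly, whereas Tcp1, Cct3, Cct6a and Cct8 form the side that binds it weakly. The best known clients are actin and tubulin. Others include WD-repeat proteins such as G protein beta subunits and the mitotic activator Cdc20. Prefoldin hands unfolded actin and tubulin to the chaperonin, and phosducin-like proteins act as cofactors.

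The subunit genes lie on different chromosomes, and the start regions of 3 of them are shown because Cct7 and Cct8 had the most counts and Tcp1 the most even share of subunit counts over the 3 deepest pools. The RefSeq promoter table for GRCm38.p6 held 7 of the 8 genes. Cct4 had no entry. Each sequence is the 250 bases before the annotated start, read 5′ to 3′ on the gene's strand, with CCAAT boxes (CCAAT or its reverse complement ATTGG) and GC boxes (GGGCGG or its reverse complement CCGCCC) in capitals.
Cct7, chr6:85451255-85451504, plus strand: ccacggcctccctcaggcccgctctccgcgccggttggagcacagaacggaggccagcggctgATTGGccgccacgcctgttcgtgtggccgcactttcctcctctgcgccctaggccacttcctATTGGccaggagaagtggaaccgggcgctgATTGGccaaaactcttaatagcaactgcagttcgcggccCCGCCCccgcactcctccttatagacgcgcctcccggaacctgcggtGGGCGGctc
Cct8, chr16:87495870-87496119, minus strand: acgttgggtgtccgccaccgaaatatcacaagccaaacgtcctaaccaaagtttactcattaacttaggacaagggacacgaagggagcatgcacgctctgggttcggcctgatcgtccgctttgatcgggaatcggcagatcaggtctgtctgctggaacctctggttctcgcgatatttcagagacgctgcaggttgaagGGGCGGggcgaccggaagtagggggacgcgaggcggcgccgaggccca
Tcp1, chr17:12916079-12916328, plus strand: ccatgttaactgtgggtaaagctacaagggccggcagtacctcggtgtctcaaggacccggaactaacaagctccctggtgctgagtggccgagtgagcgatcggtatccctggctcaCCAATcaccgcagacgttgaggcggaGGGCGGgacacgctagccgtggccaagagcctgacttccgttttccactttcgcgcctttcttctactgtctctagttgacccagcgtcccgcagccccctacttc
The Cct7 sequence held 3 CCAAT boxes and 2 GC boxes, that of Tcp1 1 of each, and that of Cct8 1 GC box and no CCAAT box. In the whole window, which runs 50 bases further into the gene, a GC box was found in 8 of 9 subunit promoters, against 35.7% of the 32851 promoters in the table. The 7 genes have 9 entries because Cct2 and Cct5 have 2 each. A CCAAT box was found in 4 of 9, against 37.4%. Of the paired heat shock elements, searched on both strands, GAANNTTC occurred in 1 of 9, for Cct2, and was found in 7.86% of all promoters. TTCNNGAA occurred in 2 of 9, for Cct5 and Cct6a, and was found in 8.52%. These matches describe letters and are no evidence of binding.

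The libraries differed 62.4-fold in depth, from 25521 counts for KS100+anti-PD-1 to 1591673 for control. A count of 0 allows up to 3 counts, equal to 1.88 CPM (counts scaled to 1000000 per pool) at the deepest and 118 CPM at the shallowest. Mitochondrial genes held 1.29% to 1.89% of reads where no inhibitor was given and 13.2% to 19.8% where one was. Ribosomal RNA genes took 27.4% in the triple combination and at most 5.01% elsewhere. This set also holds mitochondrial genes, whose reads are counted in both percentages. The mitochondrial and ribosomal RNA percentages therefore overlap and cannot be added. Of 9 melanocyte markers, all 9 were detected in the 3 deepest pools, while Tyr, which encodes tyrosinase, was at 0 in the other pools. T cell markers had 0 to 6 counts per pool.

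The 8 subunits together had 6389 counts in the control pool, 3460 with anti-PD-1, 46 with AZD5363+MK1775, 750 in the triple combination, 66 with KS100 and 20 with KS100+anti-PD-1. As a share of all counts this was 0.401% (95% exact binomial interval 0.392 to 0.411) in control and 0.345% (0.334 to 0.357) with anti-PD-1. It was 0.173% (0.126 to 0.230) with AZD5363+MK1775 and 0.222% (0.206 to 0.238) in the triple combination. The share was 0.147% (0.114 to 0.188) with KS100 and 0.0784% (0.0479 to 0.121) with KS100+anti-PD-1. Every inhibitor pool thus had a lower share of subunit reads than either pool without an inhibitor. The intervals of the inhibitor pools did not overlap those of the other pools. All counts include mitochondrial and ribosomal RNA reads, which took a larger part of the inhibitor pools. Scaled to nuclear protein-coding totals, the subunit sum of the triple combination was at 0.822 (0.761 to 0.887) against control. Against anti-PD-1 it was 0.961 (0.887 to 1.04), an interval that spans 1. Intervals cover counting error only, and in pooled tissue fewer tumour cells and less RNA per cell cannot be told apart.

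**Figure D1:**
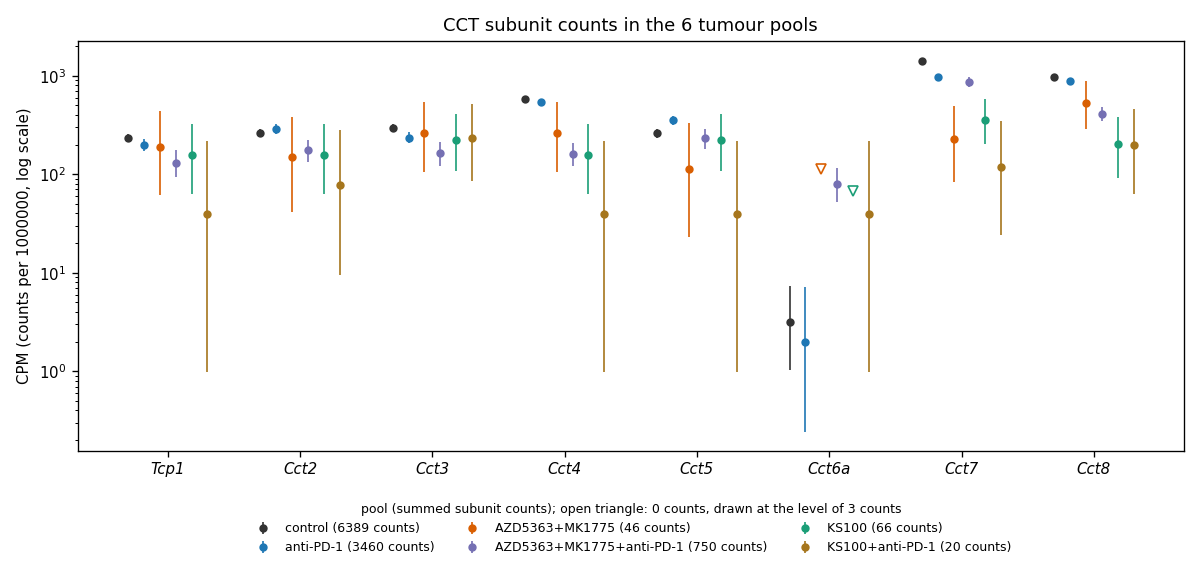
CPM (log scale) of each CCT subunit in the 6 pools, with 95% exact Poisson intervals. Apart from Cct6a, values of control, anti-PD-1 and the triple combination are tightly bounded. Those of the other pools are not, and Cct6a sits far below the other subunits where no inhibitor was given.

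On the strong ATP-binding side, Cct7 (chr6:85451514-85468475, GRCm38) had 2241 counts in control, 969 with anti-PD-1, 6 with AZD5363+MK1775, 294 in the triple combination, 16 with KS100 and 3 with KS100+anti-PD-1. Cct4 (chr11:22990519-23003780) had 914, 536, 7, 54, 7 and 1 counts in the same order. Both genes had over 500 counts in control and with anti-PD-1, and Cct4 had 7 or fewer in the 3 shallowest. Cct5 (chr15:31590800-31601804) had 414, 354, 3, 78, 10 and 1 counts, and Cct2 (chr10:117051001-117063814) had 420, 286, 4, 59, 7 and 2. In CPM Cct5 was 260 in control and 353 with anti-PD-1, the subunit with the clearest higher value under the antibody.

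On the weak ATP-binding side, Cct8 (chr16:87483326-87495873) had 1557 counts in control, 879 with anti-PD-1, 14 with AZD5363+MK1775, 139 in the triple combination, 9 with KS100 and 5 with KS100+anti-PD-1. Cct3 (chr3:88297116-88321767) had 466, 235, 7, 55, 10 and 6 counts in that order, and Tcp1 (chr17:12915701-12925067) had 372, 199, 5, 44, 7 and 1. Cct3 was the subunit with the most counts in the KS100+anti-PD-1 pool. Cct6a (chr5:129786998-129846371) had 5, 2, 0, 27, 0 and 1 counts. It had few counts in the deep pools, and the triple combination was the pool with the most.

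The library kit reads the 3′ ends of transcripts, so the place where a gene model ends bears on these counts. In the GENCODE M21 annotation Cct6a is typed as a processed transcript, and its exons fall into groups separated by 50108 bases, between 129794704 and 129844813. No other transcript matched its 3′ end over 100 or more aligned bases. The release used for the deposited counts is not given in the sources used here, and whether the model lowers the Cct6a counts was not tested. The antisense gene Usp16 overlaps the last 192 bases of the Cct8 3′ end and had 170, 99, 5, 21, 4 and 1 counts across the pools. Acat3 covers the Tcp1 3′ end on the opposite strand and had 0 or 1 count in every pool. The strand setting of the counting is not given in the sources used here, so Cct8 and Tcp1 reads are uncertain to that extent. Cct3 has processed pseudogenes whose copies of its 3′ end are 92.8% (Cct3-ps1) and 90.6% (Gm11516) identical, and Cct7 has one at 94.1% (Gm12180). All 3 pseudogenes were at 0 in every pool, and reads that match gene and copy equally may have been dropped.

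Ratios between pools were scaled by TMM, a normalisation that aims to set the bulk of genes to 1. Genes with at least 300 counts in either pool lay below 1 at the median in the inhibitor pools. Their median log2 ratio to control was -0.85 with AZD5363+MK1775, -0.64 in the triple combination, -1.04 with KS100 and -1.70 with KS100+anti-PD-1. With anti-PD-1 alone it was -0.10. This minimum takes the larger count and so favours genes high in the deeper pool, which by itself can lower these medians and raise the share called lower. Over all genes with 20 counts, with zeros set to 3 counts, the medians were 0.47, -0.01, 0.25 and 0.90 in the same inhibitor pools. A gene was called higher or lower where either pool had at least 20 counts and the gene differed at least 2-fold, with a 95% exact conditional interval wholly beyond 1.5-fold. Cct6a met the count minimum only through the triple combination. In comparisons of a shallow pool with a deeper one the other subunits met it only through the deeper pool (control, anti-PD-1 or the triple combination), so counts of subunits past the rule there are descriptions of size.

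Anti-PD-1 without an inhibitor left the subunits close to control. The summed ratio was 0.846 (0.812 to 0.882), and none of 7 subunits passed the rule, where 2.01% of the 8119 genes with 20 counts were called lower and 2.8% higher. Cct7 was the lowest of the 7, at 0.676 (0.626 to 0.729), followed by Cct3 at 0.788 (0.671 to 0.924) and Tcp1 at 0.836 (0.700 to 0.996). Cct5 stood on the other side of 1 at 1.34 (1.16 to 1.54), and Cct2 at 1.06 (0.913 to 1.24) could not be placed on either side. Without Cct7 the sum was 0.939. The median log2 ratio of the 7 subunits was -0.18, against 0.01 over all genes with 20 counts. In the same comparison fibroblast markers summed to 13.4 (11.5 to 15.7), skeletal muscle markers to 13.4 (10.6 to 17.1) and macrophage markers to 2.68 (2.20 to 3.27). The part of these other cell types in the subunit ratios was not tested.

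**Figure D2:**
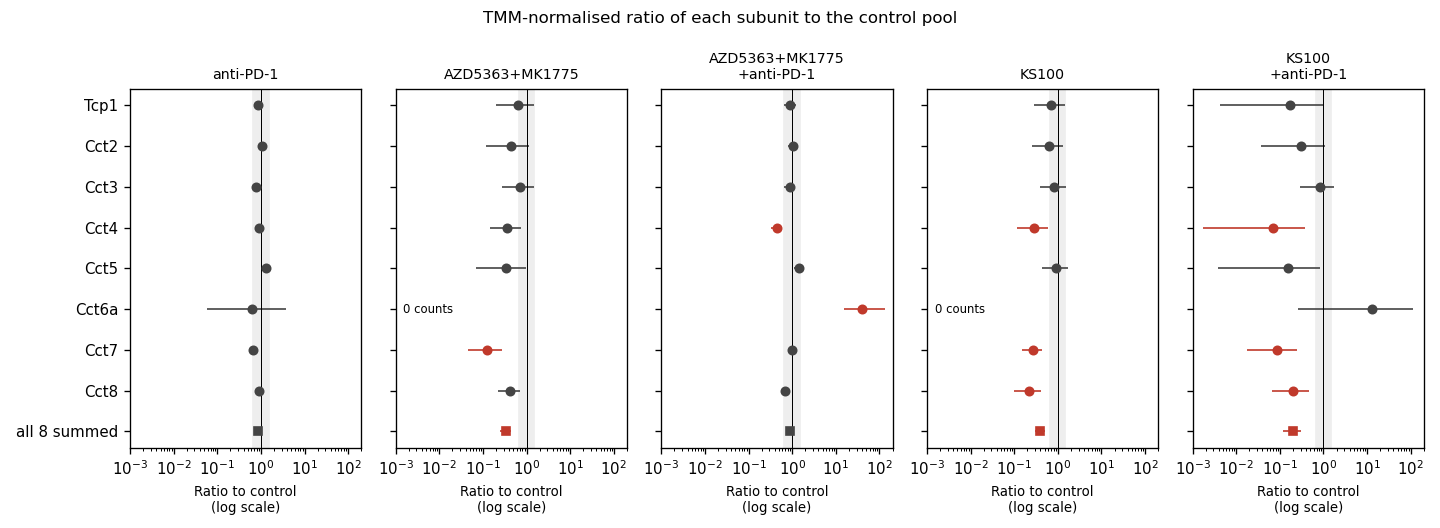
TMM-normalised ratio of each subunit and of their sum to the control pool (log scale), with 95% exact conditional intervals. Red marks ratios past the size rule and grey the span within 1.5-fold: Cct4 is low and Cct6a high in the triple combination, and Cct7 is low in the other inhibitor pools.

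AZD5363+MK1775 gave a lower subunit sum than control, at 0.334 (0.244 to 0.446). Cct7 passed the rule as lower, at 0.124 (0.0455 to 0.271), and it was 1 of 7 subunits, where 2.09% of 7948 genes were called lower. All 7 ratios lay below 1, and the highest was that of Cct3 at 0.697 (0.278 to 1.45). Cct8 was at 0.417 (0.227 to 0.702) and Cct4 at 0.355 (0.142 to 0.735), neither past the rule. The sum was 0.508 (0.371 to 0.678) when scaled to nuclear protein-coding totals and no longer passed the rule, while Cct7 passed under each of the 6 scalings run. The median log2 ratio of the 7 subunits was -1.26. It was -0.85 among the 1122 genes that reached 300 counts in either pool, a minimum chosen after the values were seen so that these genes resemble the subunits in depth. Of those genes 13.6% were called lower. Melanocyte markers summed to 0.368 (0.328 to 0.413), with 6 of 9 lower, and skeletal muscle, macrophage and endothelial markers were all at 0. None of these sums at 0 was called, as their ratios to control had upper limits of 2.22, 1.07 and 0.684. For muscle and macrophage markers the limit lies above 1.

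The triple combination stood near control in the subunit sum but not in each subunit. The summed ratio was 0.883 (0.818 to 0.953), and 5 of 8 ratios lay below 1. Cct4 was lower at 0.444 (0.331 to 0.585), and Cct6a was higher at 40.6 (15.4 to 135), on 27 counts against 5. The rule called 8.13% of 8059 genes lower and 14.7% higher in this comparison. Among genes with at least 300 counts, 31.7% were called lower and 8.30% higher. Cct5 was at 1.42 (1.10 to 1.81), Cct7 at 0.987 (0.871 to 1.12) and Cct8 at 0.672 (0.561 to 0.799), none of them past the rule. With DESeq2 size factors Cct8 passed as lower too, at 0.469, and with library totals at 0.420, which makes 1 subunit higher and 2 lower. The sum was 0.617 and 0.552 under these scalings. The median log2 ratio of the 8 subunits was -0.09, against -0.64 over the 1132 genes with at least 300 counts and -0.02 over all genes with 20.

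Markers of cells other than melanoma also differed between the triple combination and control, in both directions. Skeletal muscle markers had 2523 counts there against 79 in control, with 6 of 6 tested called higher. Macrophage markers had 119 against 161 in the far deeper control, a ratio of 5.56 (4.35 to 7.09), and C1qa held 82 of the 119. Fibroblast markers were at 6.10 (4.90 to 7.58) and endothelial markers, not called, at 1.13 (0.784 to 1.60). Erythroid markers were lower at 0.182 (0.113 to 0.277), with 2 of 4 tested lower. In the anti-PD-1 pool muscle markers had 676 counts and fibroblast markers 1631, and Cct6a had 2 counts. The part of these cells in the Cct6a counts was not tested. Psph, the antisense gene that overlaps the Cct6a start over 452 bases, had 15 counts in the triple combination and 188 in control.

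KS100 gave a subunit sum of 0.393 (0.303 to 0.500) against control. The lower subunits were Cct8 at 0.220 (0.100 to 0.418), Cct7 at 0.271 (0.155 to 0.442) and Cct4 at 0.291 (0.117 to 0.602), 3 of 7, where 3.43% of 7951 genes were called lower. These are the 3 subunits with the most counts in control, and hence those in which a fall is easiest to detect at this depth. Cct5 was at 0.918 (0.437 to 1.71) and Cct3 at 0.816 (0.389 to 1.51), each with an interval that spans 1. Cct4 missed the rule under 3 of the 6 scalings, at 0.361 (0.145 to 0.747) with nuclear protein-coding totals, 0.353 with TMM over genes kept by filterByExpr and 0.325 with totals that leave out mitochondrial and ribosomal RNA genes. The median log2 ratio of the 7 subunits was -0.66, against -1.04 over the 1122 genes with at least 300 counts, 21.2% of which were called lower. Melanocyte markers summed to 0.249 (0.219 to 0.283), with 7 of 9 lower, and erythroid markers to 0.250 (0.0917 to 0.547). Fibroblast markers were higher at 3.60 (2.09 to 5.85), on 18 counts. Skeletal muscle markers summed to 4.33 (1.91 to 8.65) on 9 counts, 8 of them from Ttn. Acta1, Tnnt3, Ckm and Mylpf were at 0, and no single muscle marker was called. The part of background in the Ttn counts was not tested. The part of these cells in the subunit ratios was not tested.

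KS100 with anti-PD-1 had the fewest subunit reads and the lowest summed ratio to control, 0.198 (0.121 to 0.307). Cct4 at 0.0693 (0.00175 to 0.387), Cct7 at 0.0848 (0.0175 to 0.248) and Cct8 at 0.204 (0.0660 to 0.476) were lower, 3 of 7, where 5.27% of 7948 genes were called lower and 3.12% higher. Cct3, with 6 counts, was at 0.816 (0.298 to 1.79) and could not be placed. Genes at 0 in both libraries without an inhibitor took 9.17% of the counts of this pool, and at their rate per exon base 2.97 of its 20 subunit counts would be background. Less that background the sum was 0.169. Because these genes were picked for 0 counts in control, the subtraction could only lower the ratio. Cct8 missed the rule with nuclear protein-coding totals, at 0.324 (0.105 to 0.759). The median log2 ratio of the 7 subunits was -2.55, against -1.70 over 1123 genes with at least 300 counts, of which 37.3% were called lower. Melanocyte markers summed to 0.117 (0.0907 to 0.148), with 7 of 9 lower, and erythroid markers to 0.139 (0.0168 to 0.504). Fibroblast markers were higher on 12 counts against 190 (interval of the ratio 2.03 to 7.16). Skeletal muscle markers summed to 13.6 (7.57 to 23.2) on 17 counts, 14 of them from Ttn. Acta1, Tnnt3 and Ckm were at 0, and no single muscle marker was called. The part of background in the Ttn counts and the part of these cell types in the subunit ratios were not tested.

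Comparisons of a combination with its parts addressed what each agent added. The triple combination against anti-PD-1 gave a sum of 1.04 (0.963 to 1.13). Cct4 was lower at 0.485 (0.360 to 0.642) and Cct6a higher at 65.0 (16.3 to 564), 2 of 8, where 8.55% of 7138 genes were called lower and 13.7% higher. Of the 602 genes that reached 300 counts, 36.2% were lower and 9.47% higher. The direction of this sum turned with the scaling, to 0.793 with DESeq2 size factors and 0.642 with library totals. Against AZD5363+MK1775 the triple combination gave 2.65 (1.96 to 3.65), with Cct7 higher at 7.95 (3.61 to 21.8), 1 of 8, where 16.1% of 2793 genes were called higher, as were 70.5% of the 61 that reached 300 counts. That sum missed the rule at 1.28 (0.952 to 1.77) with library totals and at 1.62 (1.20 to 2.23) with nuclear protein-coding totals. It was 1.85 without Cct7. No subunit reached 300 counts in that comparison, and this minimum favours genes high in the deeper triple combination. The 70.5% is therefore no depth-matched background for the subunits.

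KS100+anti-PD-1 against anti-PD-1 gave a sum of 0.234 (0.143 to 0.363). Cct4, Cct5, Cct7 and Cct8 were lower, 4 of 7, where 5.95% of 6959 genes were called lower, as were 57.2% of the 591 that reached 300 counts. Cct7 was at 0.126 (0.0258 to 0.368). Cct7 alone of these passed under all 6 scalings. With nuclear protein-coding totals Cct4, Cct5 and Cct8 did not pass, at 0.119, 0.181 and 0.364. KS100+anti-PD-1 against KS100 gave 0.505 (0.290 to 0.844), which did not pass the rule, but with DESeq2 size factors it was 0.207 (0.119 to 0.346) and passed as lower. No subunit had 20 counts in either pool.

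**Figure D3:**
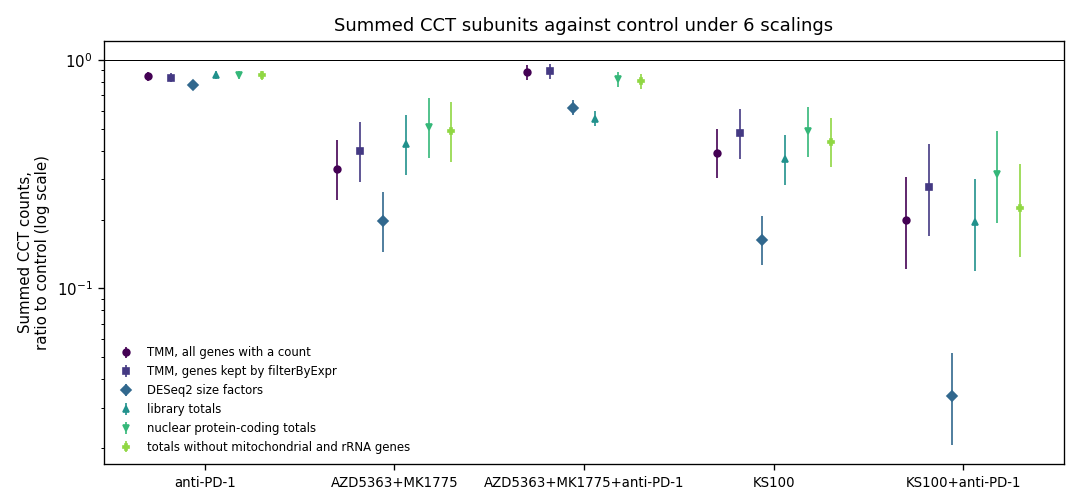
Ratio of the summed subunit counts to control (log scale) under 6 scalings, with 95% exact conditional intervals. Every point lies below 1, the triple combination ranges from 0.552 to 0.892, and DESeq2 size factors give the lowest values in the remaining pools.

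Shares of a subunit within the summed subunit counts of a pool do not depend on the scaling between pools. Cct4 made up 14.3% (exact binomial interval 13.5 to 15.2) of subunit counts in control and 15.5% (14.3 to 16.7) with anti-PD-1, against 7.20% (5.45 to 9.29) in the triple combination. Cct8 made up 24.4% (23.3 to 25.4), 25.4% (24.0 to 26.9) and 18.5% (15.8 to 21.5) in the same pools. The triple combination thus had smaller shares of Cct4 and Cct8, with intervals apart from those of both pools without an inhibitor.

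Cct7 made up 35.1% (33.9 to 36.3) of subunit counts in control, 28.0% (26.5 to 29.5) with anti-PD-1 and 39.2% (35.7 to 42.8) in the triple combination. With AZD5363+MK1775 it made up 13.0% (4.94 to 26.3), an interval below those of control and the triple combination. Cct5 had a larger share with anti-PD-1, at 10.2% (9.24 to 11.3), and in the triple combination, at 10.4% (8.31 to 12.8), than in control at 6.48% (5.89 to 7.11). Cct6a was 0.0783% (0.0254 to 0.183) of subunit counts in control and 3.60% (2.39 to 5.19) in the triple combination. Its 0 counts with AZD5363+MK1775 and with KS100 allowed shares up to 7.71% and 5.44%, so a share like that of the triple combination was not detectable there. Cct2 was 6.57% (5.98 to 7.21) in control, 8.27% (7.37 to 9.23) with anti-PD-1 and 7.87% in the triple combination, and the intervals of control and anti-PD-1 did not overlap. Cct3 was 7.29%, 6.79% and 7.33% in the 3 deepest pools, and Tcp1 was 5.82%, 5.75% and 5.87%. In the KS100 pool Cct8 was 13.6% (6.43 to 24.3).

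**Figure D4:**
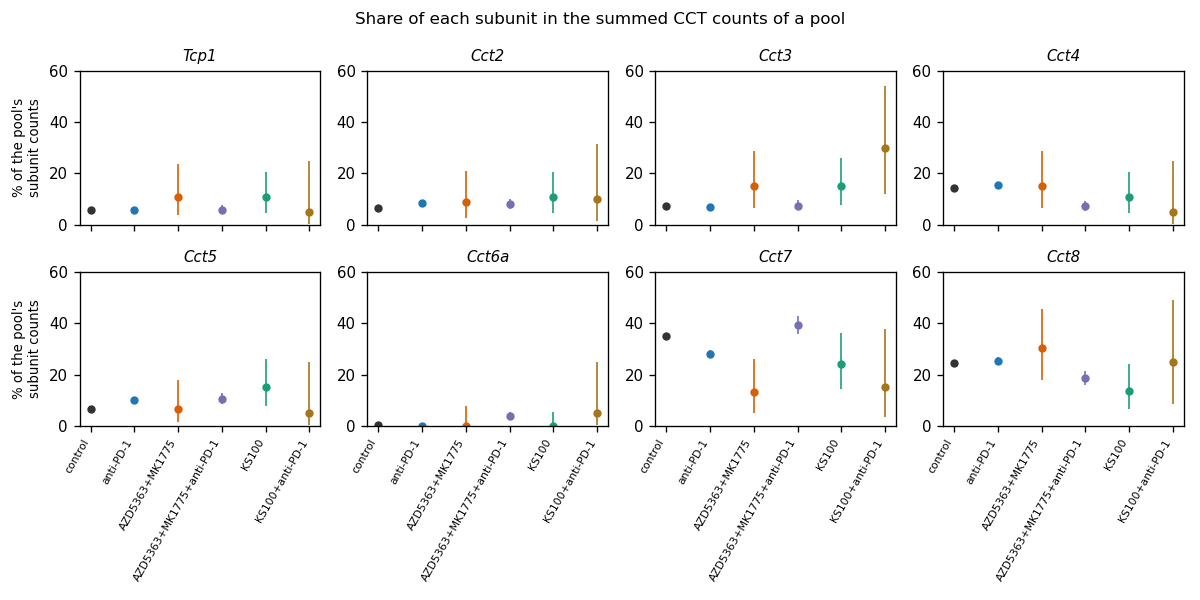
Share of each subunit in the summed CCT counts of each pool (%), with 95% exact binomial intervals. Cct4 and Cct8 are low and Cct6a high in the triple combination, Cct7 is low with AZD5363+MK1775, and Tcp1 is nearly level over the 3 deepest pools.

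Subunit counts were also set against those of melanocyte markers, a ratio added after the values were seen. There were 17.0 subunit counts per 100 marker counts (16.6 to 17.5) in control, 16.9 (16.3 to 17.5) with anti-PD-1 and 15.4 (11.1 to 21.1) with AZD5363+MK1775. The triple combination had 19.1 (17.6 to 20.7), KS100 26.8 (20.1 to 35.3) and KS100+anti-PD-1 29.0 (16.7 to 48.3). Subunits and melanocyte markers were therefore low together with AZD5363+MK1775, while with KS100 the markers were the lower of the 2 relative to control. What sets either level was not tested.

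Prefoldin, which delivers clients to the chaperonin, had sums against control of 0.898 (0.821 to 0.981) with anti-PD-1, 0.445 (0.236 to 0.763) with AZD5363+MK1775, 0.599 (0.488 to 0.729) in the triple combination, 0.673 (0.430 to 1.01) with KS100 and 0.327 (0.131 to 0.676) with KS100+anti-PD-1. The triple combination had 2 of 6 members lower, Vbp1 at 0.377 (0.234 to 0.578) and Pfdn6 at 0.226 (0.0608 to 0.593), and no member was called in the other 4 comparisons with control. Of all tested genes 8.13% were lower in the triple combination, and 31.7% of those that reached 300 counts. Its subunit counts per 100 prefoldin counts were 694 (567 to 858), above the 471 (444 to 500) of control. Of the phosducin-like and thioredoxin-like cofactors, Pdcl3 was lower in the triple combination at 0.293 (0.139 to 0.547). It had 0 counts with KS100, at least 2.25-fold lower than control, a call lost with nuclear protein-coding totals and with TMM over genes kept by filterByExpr. Txndc9 was at 0.904 (0.588 to 1.34) in the triple combination.

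Among actin and tubulin, the main clients, Actb stood apart from the rest in the triple combination. Actb, cytoplasmic beta-actin, was higher at 6.26 (5.97 to 6.57), and the gamma-actin gene Actg1 was lower at 0.236 (0.107 to 0.454). The alpha-tubulin gene Tuba1a was lower at 0.463 (0.346 to 0.608). In all 1 of 12 members tested was higher and 2 lower, and these 3 calls held under all 6 scalings. Of all tested genes 14.7% were higher and 8.13% lower in the triple combination, and of those that reached 300 counts 8.30% and 31.7%. The list's sum was 2.36 (2.28 to 2.44) while its median log2 ratio was -0.34. The sum was 1.65 with DESeq2 size factors and 1.48 with library totals, and no longer past the rule. Subunit counts per 100 counts of these clients were 45.7 (44.4 to 47.1) in control and 17.1 (15.8 to 18.5) in the triple combination. Actb held 3093 of the 4381 client counts there. With anti-PD-1 alone 1 of 12 was lower, Tuba1a at 0.311 (0.263 to 0.366). There 2.01% of all tested genes were lower, and 4.67% of those that reached 300 counts.

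Of the alpha-tubulin genes, Tuba1a, Tuba1b and Tuba1c were called lower in each of the other inhibitor pools, and Tuba4a in none. In the triple combination Tuba1b was at 1.52 (1.37 to 1.68) and not called. With AZD5363+MK1775, 3 of 12 clients were lower: Tuba1b at 0.147 (0.0590 to 0.303), Tuba1c at 0.369 (0.247 to 0.530), and Tuba1a, undetected at 0 counts, which makes it at least 6.43-fold lower. The Tuba1c call was lost with 3 of the other scalings, at 0.475 with library totals. With KS100 the same 3 genes were lower, Tuba1a at 0.0851, Tuba1b at 0.448 and Tuba1c at 0.469, the last pair not past the rule with nuclear protein-coding totals, at 0.555 and 0.582. Of all tested genes 2.09% were lower with AZD5363+MK1775 and 3.43% with KS100. Among those that reached 300 counts the shares were 13.6% and 21.2%. With KS100+anti-PD-1, 6 of 12 clients were lower, among them Tuba1b at 0.201, Tuba1c at 0.156, Actb at 0.205 and Tubb5 at 0.240. The same comparison had 5.27% of all tested genes lower and 37.3% of those that reached 300 counts. Tuba1a and Tubb4b had 0 counts there, at least 4.70-fold and 2.27-fold lower. Tubb5 and Tubb4b missed the rule with nuclear protein-coding totals and with TMM over genes kept by filterByExpr. The alpha-tubulin genes are close copies, and reads shared between them make each single value uncertain.

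Tubulin folding cofactors, which act after the chaperonin releases tubulin, summed to 0.818 with anti-PD-1, 0.582 with AZD5363+MK1775, 0.356 (0.287 to 0.436) in the triple combination, 0.440 with KS100 and 0.245 with KS100+anti-PD-1. The KS100 sum missed the rule under 3 scalings, at 0.546 with nuclear protein-coding totals, and the KS100+anti-PD-1 sum under 2, at 0.390 with those totals and 0.342 with TMM over genes kept by filterByExpr. Tbca was lower in the triple combination at 0.284 (0.209 to 0.378), with KS100 at 0.381 (0.203 to 0.654) and with KS100+anti-PD-1 at 0.147 (0.0302 to 0.430). With nuclear protein-coding totals the KS100 and KS100+anti-PD-1 values were 0.473 and 0.234 and not past the rule. Tbcc was lower in the triple combination at 0.361, and Tbce was higher with anti-PD-1 at 2.96 (1.65 to 5.47). Of all tested genes 14.7% were higher and 8.13% lower in the triple combination. With KS100 3.43% were lower, and with KS100+anti-PD-1 3.12% were higher and 5.27% lower. Among 13 WD-repeat and other clients 1 was called in the triple combination, 1 with KS100 and 1 in each direction with KS100+anti-PD-1. Ppp2r2a, a regulatory subunit of phosphatase 2A, was higher in the triple combination at 3.38 (2.49 to 4.55). Bub3, a spindle checkpoint protein, was lower with KS100 at 0.125 (0.0151 to 0.453). With KS100+anti-PD-1 the G protein beta subunit gene Gnb1 was lower at 0.106 (0.00267 to 0.592), and Rptor, an mTOR complex subunit, was higher at 12.7 (3.79 to 33.7) on 5 counts against 25. The Gnb1 call was lost with nuclear protein-coding totals, at 0.169, and that of Rptor with DESeq2 size factors, at 2.16. No member of this list was called with anti-PD-1 or with AZD5363+MK1775. Of all tested genes 2.8% were higher and 2.01% lower with anti-PD-1, and 2.09% were lower with AZD5363+MK1775. Against such shares 13 genes are too few to set the list apart.

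Heat shock factor 1 and its chaperone targets were lower than the subunits relative to control in the anti-PD-1 pool. They summed to 0.650 (0.631 to 0.669), and 4 of 14 tested were lower: Hspa1b at 0.0919, Dnajb1 at 0.273, Hspe1 at 0.386 and Hsp90aa1 at 0.461. There were 55.6 subunit counts per 100 counts of these genes (53.3 to 58.0) with anti-PD-1 and 42.7 (41.5 to 44.0) in control. Of all tested genes 2.01% were lower with anti-PD-1, and 4.67% of those that reached 300 counts. In the triple combination 3 of 14 heat shock genes were higher, namely Hsp90aa1 at 2.55, Hsph1 at 2.33 and Chordc1 at 3.13. The 4 lower were Hspa1b at 0.0295, Dnajb1 at 0.119, Bag3 at 0.358 and Dnaja1 at 0.420. Of all tested genes 14.7% were higher there and 8.13% lower, and of those that reached 300 counts 8.30% and 31.7%. The 3 higher calls were lost with library totals, at 1.60, 1.46 and 1.96, while the 4 lower calls held under all 6 scalings. The sum of the list, 1.17 with TMM, turned to 0.728 with library totals, and its median log2 ratio was -0.16. With AZD5363+MK1775 4 of 14 were lower, Hspa8 at 0.334 and Hspa4 at 0.0870, with Dnajb1 and Bag3 at 0 counts and at least 2.26-fold and 2.57-fold lower. The same comparison had 2.09% of all tested genes lower and 13.6% of those that reached 300 counts. The list's sum there was 1.07 (0.958 to 1.19), on 345 counts of which Hsp90ab1 held 292. Its median log2 ratio was -2.97 with a prior count of 2 but -1.05 with zeros set to 3 counts, as 7 of the 14 tested were at 0. These 4 calls were lost with nuclear protein-coding totals, and the sum was 0.632 with DESeq2 size factors.

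With KS100 5 of 14 heat shock genes were lower, Hspa8 at 0.137, Hspa4 at 0.214, Hspe1 at 0.223 and Dnaja1 at 0.277, with Hspa1b at 0 counts and at least 2.24-fold lower. Of all tested genes 3.43% were lower with KS100, and of those that reached 300 counts 21.2%. With KS100+anti-PD-1 2 heat shock genes were lower, Hspa8 at 0.171 and Hsp90ab1 at 0.428. There 5.27% of all tested genes were lower, and 37.3% of those that reached 300 counts. With nuclear protein-coding totals Hspa8 and Hspe1 were still lower with KS100, and no heat shock gene was with KS100+anti-PD-1. Of the related chaperonins, Hspd1, the mitochondrial member, was lower with KS100 at 0.0924 (0.0112 to 0.335), on 2 counts against 823. It was at 1.55 (1.31 to 1.84) in the triple combination and did not pass the rule. The list's sum there turned from 1.57 to 0.981 with library totals. Mkks, a chaperonin-like protein of the cilium base, had 145, 95, 2, 35, 2 and 1 counts across the pools. Cct6b, the testis paralog of Cct6a, had at most 1 count in any pool.

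The genes whose pattern lay nearest to the subunit sum were sought among 57 genes with at least 10 counts in every pool. Likeness was the root mean square difference in log2 ratio to control over the 5 other pools. The nearest was Npm1, a nucleolar protein, at 0.30, followed by Sdcbp at 0.36, the pigment enzyme gene Dct at 0.38, Chchd2 at 0.40 and Prdx1 at 0.57. Dct had log2 ratios of -0.21, -1.36, -0.18, -2.03 and -2.80 with anti-PD-1, AZD5363+MK1775, the triple combination, KS100 and KS100+anti-PD-1. The subunit sum had -0.24, -1.58, -0.18, -1.35 and -2.33. With a minimum of 20 counts 21 genes remained, and 2 of the 5 nearest were the same.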

How the data were processed

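RNA was measured in 6 pooled tumour libraries made with the QuantSeq 3′ FWD kit and sequenced on a MiSeq, per the labels' protocols. The deposited values are whole-number read counts per Ensembl gene. The submitters' processing notes name HISAT2 2.1.0, HTSeq, bcl2fastq and GRCm38. Symbols and gene models came from GENCODE M21 and promoter sequences from RefSeq (GRCm38.p6). The 92 spike-in names, all at 0, were left out. TMM factors were computed with edgeR 4.0.16 in R 4.3.3 over the 19725 genes with a count, and DESeq2 1.42.0 gave size factors as an alternative. With 1 library per treatment no test was made. Ratios carry 95% exact conditional intervals (scipy 1.17.1). Median log2 ratios over all genes with 20 counts use a prior count of 2. In the shallow pools many of these genes were at 0 (3214 of 7948 with AZD5363+MK1775), and with zeros set to 3 counts that median turned from -1.25 to 0.47, so medians over genes with at least 300 counts, with zeros set to 3 counts, are given there. Transcript copies were searched with BLAST 2.17.0 over the last 400 bases of each subunit. The interval code was tested on simulated data. Named were the 8 subunits, every listed gene called against control and otherwise the 2 listed genes with most counts. The members, lists and rules were chosen with earlier results of these data known. The 6 scalings were TMM over all genes with a count or over those kept by edgeR's filterByExpr, DESeq2 size factors, library totals, nuclear protein-coding totals, and totals without mitochondrial and ribosomal RNA genes. Further alternatives covered the rule, expected background and leaving out single subunits.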

Additional observations from a re-analysis of the deposited data

Results flagged for a closer look

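The antibody's ratio pointed in opposite directions in different inhibitor settings for the subunit sum and for Cct7, and this difference was not tested. Adding anti-PD-1 gave a subunit sum of 0.846 without an inhibitor, 2.65 on top of AZD5363+MK1775 and 0.505 on top of KS100. For Cct7 it gave 0.676 without an inhibitor and 7.95 on top of AZD5363+MK1775, the latter on 294 counts against 6. Neither 0.846 nor 0.505 passed the rule with TMM. The 2.65 became 1.28 (0.952 to 1.77) with library totals, an interval that spans 1. It was 1.62 with nuclear protein-coding totals and 1.64 without mitochondrial and ribosomal RNA genes, not past the rule. Its log2 value with TMM was 1.40, against a median of 1.64 over the 61 genes that reached 300 counts. No subunit reached that minimum, which favours genes high in the deeper triple combination, so this median is no depth-matched background. Each ratio rests on 1 library per treatment, and the AZD5363+MK1775 pool had 26639 counts in all.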

How the results depend on the processing

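No paired analysis was possible because each treatment has 1 library. Of 135 summed ratios under the alternatives 27 moved beyond their counting interval, and none that had been called turned direction. With DESeq2 size factors the sums against control were 0.778 (anti-PD-1), 0.197 (AZD5363+MK1775), 0.617 (triple combination), 0.163 (KS100) and 0.0338 (KS100+anti-PD-1). Between combinations and their parts they were 0.793 (triple against anti-PD-1), 0.0434 (KS100+anti-PD-1 against anti-PD-1) and 0.207 (against KS100). Library totals gave 0.552 for the triple combination against control, 0.642 against anti-PD-1 and 1.28 against AZD5363+MK1775. Nuclear protein-coding totals gave 0.508 (AZD5363+MK1775) and 0.316 (KS100+anti-PD-1) against control, 0.961 and 0.370 for the triple combination and KS100+anti-PD-1 against anti-PD-1, and 1.62 for the triple combination against AZD5363+MK1775. Totals without mitochondrial and ribosomal RNA genes, an alternative added after seeing the data, gave 0.490 for AZD5363+MK1775 and 0.804 for the triple combination against control, and 0.941 and 1.64 for the latter against anti-PD-1 and AZD5363+MK1775.

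Without Cct7 the sums were 0.939 (anti-PD-1) and 0.447 (AZD5363+MK1775) against control, and for the triple combination 0.881 against anti-PD-1 and 1.85 against AZD5363+MK1775. Without Cct4 the triple combination was at 0.956 against control and 1.15 against anti-PD-1, and without Cct8 at 1.14 against anti-PD-1. Of 72 counts of called subunits 10 moved by over 1.5 times. With DESeq2 size factors they became 4 from 1 (AZD5363+MK1775), 6 from 3 (KS100) and 7 from 3 (KS100+anti-PD-1) against control, 2 from 1 for the triple combination against AZD5363+MK1775 and 7 from 4 for KS100+anti-PD-1 against anti-PD-1. With intervals beyond 1 in place of 1.5 they were 4 (AZD5363+MK1775) and 5 (KS100+anti-PD-1) against control, and 3 for the triple combination against AZD5363+MK1775. For KS100+anti-PD-1 against anti-PD-1 the count was 1 with nuclear protein-coding totals and 2 with TMM over genes kept by filterByExpr, also added after seeing the data. The cause of these moves was not tested. Against TMM, DESeq2 size factors shifted all log2 ratios by -2.55 in KS100+anti-PD-1 and -0.12 in anti-PD-1. The 46, 66 and 20 subunit counts of the shallow pools limit what single subunits can show there.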
